A study of Mus musculus with 2 samples.

Results

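The contractile apparatus and the calcium release machinery of muscle fibres were examined as a list of 42 genes, listed by name with no value in the rule but with earlier results of these data known, out of 21774 protein-coding genes of GRCm38. The list covers myosin heavy and light chains, actins, tropomyosins, troponins, Z-disc and M-band proteins, calcium channels and stores, and genes of energy and oxygen supply. A peak counted for a gene when its summit, the position of highest coverage, lay inside the gene span, or when an end of that gene was the closest protein-coding gene end and lay within 50 kb. The data were 2977 peaks from chromatin immunoprecipitation with sequencing (ChIP-seq) in untreated C57BL/6 mice with the Pax7-YFP KI genotype, a knock-in of yellow fluorescent protein at Pax7. Muscle stem cells were isolated by flow cytometry, and an antibody against GFP, which is used here for the YFP tag, recovered the DNA of the ChIP library. The control was input DNA from the same kind of cells and genotype, with no antibody. There was 1 library per group (10622111 ChIP tags and 20429667 input tags after filtering), so nothing below has a replicate and no difference was tested between libraries. The labels do not state whether the tag is fused to the PAX7 protein, how many animals were pooled, or the age of the mice, and ChIP from cells without the tag was not analysed here. Cell identity could not be checked against marker levels because the file holds no expression values.

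A sarcomere is the repeating unit of striated muscle in which myosin thick filaments pull on actin thin filaments, with the Z-disc and the M-band holding the lattice in place. An action potential opens the ryanodine receptor of the sarcoplasmic reticulum through the voltage sensor in the membrane, and the released calcium binds troponin and lets myosin act. The genes for these proteins are transcribed when myoblasts differentiate and in mature fibres, under MyoD family and MEF2 factors, whereas PAX7 is the paired box and homeodomain factor of the undifferentiated stem cell.

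Peaks were found for 3 of the 42 genes (7.14%, Wilson 95% interval 2.46 to 19.0%), each with 1 peak, and for 9.63% of all protein-coding genes under the same rule. The share of the contractile genes was thus near that of genes in general, and its interval includes it. The genes with a peak were Myh1, which encodes the fast IIx myosin heavy chain, Mylpf, which encodes the fast regulatory myosin light chain, and Ryr1, which encodes the ryanodine receptor of skeletal muscle. The other 39 genes had none, among them both striated actin genes Acta1 and Actc1, all 7 troponin genes, Ttn, Neb, Ckm and Mb. The stretches closest to an end of a listed gene added up to 2.26 Mb and held 3 summits, or 1.33 per Mb (exact Poisson 95% interval 0.273 to 3.87), and the same stretches of all protein-coding genes held 1.64 per Mb. No summit had a listed gene's end as the closest at more than 50 kb, so the distance limit removed none. None of the 3 peaks reached the median −log10 q of the whole list, so the count was 0 when weaker peaks than that were left out. With the closest annotated transcript start in place of gene ends and spans it was 1, Myh1. The Mylpf summit then went to the neighbour gene Tbc1d10b, whose start was 571 bp away. For the Ryr1 summit the closest start was that of Map4k1, at 60619 bp and thus beyond 50 kb. The annotated starts were also incomplete: 8 of the 42 genes had none, and that of Mylpf was not at the 5′ end of its span. None of those 8 genes had a peak by the main rule.

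The Myh1 peak lay in the cluster of skeletal myosin heavy chain genes, in the short gap between Myh2 and Myh1. The gene lies on the plus strand of chromosome 11 from 67200102 to 67224577, and the peak at chr11:67199483-67199742 had its summit at 67199581, 521 bp upstream of the annotated start of Myh1 and 2064 bp past the end of Myh2, which encodes the fast IIa chain. It had 11 ChIP fragments over the summit (exact Poisson 95% interval 5.49 to 19.7), a fold enrichment of 6.07 (3.28 to 10.5, with the background held fixed) and a −log10 q of 5.28. The local input background was at its lowest possible value of 0.977 scaled fragments. The gap between the 2 genes is 2584 bp long, so the peak is upstream of Myh1 and downstream of Myh2 at once. Myh3, Myh2, Myh1, Myh4 and Myh8 follow each other on the same strand over 230.4 kb, and this was the only summit in that stretch. Distances from the summit to the other genes of the cluster were 38.2 kb for Myh4 (fast IIb), 77.5 kb for Myh8 (perinatal) and 97.3 kb for Myh3 (embryonic). The closest other summit on the chromosome was 231740 bp away.

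The letters before the starts of the adult fast genes are shown because the peak stands 110 bp before the upstream window of Myh1. The sequences are the 250 bases before the annotated start, 5′ to 3′ on the plus strand, from RefSeq on GRCm38.p6, at chr11:67199852-67200101 for Myh1, chr11:67170777-67171026 for Myh2 and chr11:67237562-67237811 for Myh4. Capitals mark the longest run common to the 3 windows.
Myh1: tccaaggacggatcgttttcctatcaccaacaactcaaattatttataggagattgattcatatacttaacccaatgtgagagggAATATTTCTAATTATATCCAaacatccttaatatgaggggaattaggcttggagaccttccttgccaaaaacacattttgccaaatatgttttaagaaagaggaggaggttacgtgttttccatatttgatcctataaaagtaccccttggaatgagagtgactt
Myh2: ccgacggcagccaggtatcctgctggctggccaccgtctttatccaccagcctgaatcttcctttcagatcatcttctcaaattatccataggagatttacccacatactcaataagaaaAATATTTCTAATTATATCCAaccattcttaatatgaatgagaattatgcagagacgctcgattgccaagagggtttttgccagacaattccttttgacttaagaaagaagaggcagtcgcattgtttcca
Myh4: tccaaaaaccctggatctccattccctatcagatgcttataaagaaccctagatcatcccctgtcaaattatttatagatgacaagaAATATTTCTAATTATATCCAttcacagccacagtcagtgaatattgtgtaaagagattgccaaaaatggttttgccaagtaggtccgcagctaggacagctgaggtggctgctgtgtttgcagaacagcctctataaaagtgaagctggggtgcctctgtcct

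The common run of 20 bases begins 165 bases before the start in Myh1, 163 in Myh4 and 130 in Myh2. Since it was found by comparing these genes, their matches are no result. On either strand the exact run was in 3 of 21263 upstream windows of protein-coding genes, those of Myh1, Myh2 and Myh4. An exact run of 20 bases would be rare whatever its letters, so this count is a description only. Runs that differ at a base were not searched, so a like sequence before Myh3, Myh8 or other genes could have been missed. A TATAAA box stood 32 bases before the start in Myh1 and 31 in Myh4, and these letters were not in the Myh2 window. However, the run stands closer to the annotated start in Myh2. The bases as far past the run as the box in Myh1 and Myh4 thus lie beyond the Myh2 window and were not searched. The run includes the homeodomain core TAAT. The peak itself does not reach the windows, and the letters under the peak were not used here.

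**Figure D1:**
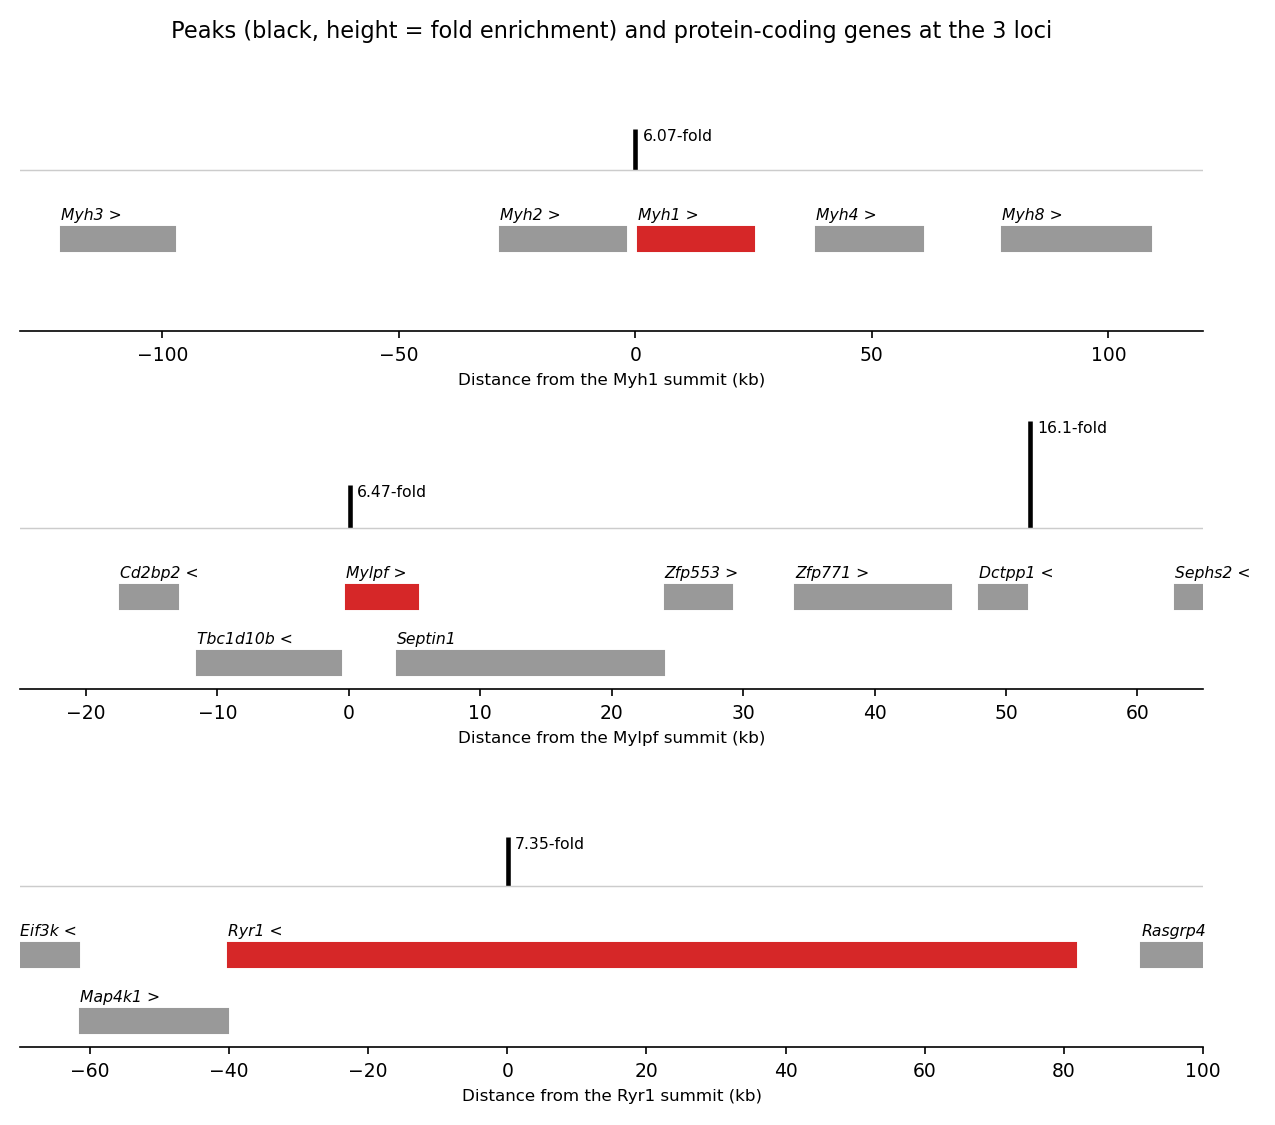
Peaks (black lines, height proportional to fold enrichment) and protein-coding genes (bars, with the strand as > or < where known) against the distance from the summit in kb at the Myh1, Mylpf and Ryr1 loci. The Myh1 summit of 6.07-fold stands between Myh2 and Myh1, the Mylpf summit of 6.47-fold at the outermost end of the gene beside Tbc1d10b, and the Ryr1 summit of 7.35-fold in the gene body.

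The Mylpf peak stood inside the annotated gene span, closer to the 5′ end of that span than to the start of the neighbour Tbc1d10b. The gene span on chromosome 7 runs from 127208848 to 127214288 on the plus strand, and the peak at chr7:127208936-127209271 had its summit at 127209039, 191 bp inside the span. The only transcript start of Mylpf in the RefSeq window table lies further in, at 127211608, 2569 bp downstream of the summit. Tbc1d10b, which encodes a GTPase-activating protein of the Rab family of small GTPases, starts at 127208468 on the opposite strand, 571 bp from the summit. The spans of the 2 genes are 379 bp apart. The peak had 13 fragments (6.92 to 22.2), a fold enrichment of 6.47 (3.66 to 10.7) and a −log10 q of 6.46 over a background of 1.16 scaled fragments. A stronger peak of 16.1-fold (11.1 to 22.7) with 31 fragments lay 51889 bp from it and 261 bp from an end of Dctpp1, a dCTP pyrophosphatase gene, and was therefore not counted for Mylpf.

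No transcript start was given at the 5′ end of the Mylpf span, the gene end closest to the summit, so the bases before it are not shown. The 250 bases before the start of Tbc1d10b and before the annotated Mylpf start further in are shown because they differ in composition. They are from RefSeq on GRCm38.p6, 5′ to 3′ on the strand of each gene, at chr7:127211358-127211607 (plus) for Mylpf and chr7:127208469-127208718 (minus) for Tbc1d10b. Capitals mark CG pairs.
Mylpf: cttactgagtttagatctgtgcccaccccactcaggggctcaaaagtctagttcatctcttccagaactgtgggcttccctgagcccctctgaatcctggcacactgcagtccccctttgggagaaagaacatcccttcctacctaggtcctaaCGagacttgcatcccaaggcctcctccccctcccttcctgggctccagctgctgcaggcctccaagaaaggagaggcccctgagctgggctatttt
Tbc1d10b: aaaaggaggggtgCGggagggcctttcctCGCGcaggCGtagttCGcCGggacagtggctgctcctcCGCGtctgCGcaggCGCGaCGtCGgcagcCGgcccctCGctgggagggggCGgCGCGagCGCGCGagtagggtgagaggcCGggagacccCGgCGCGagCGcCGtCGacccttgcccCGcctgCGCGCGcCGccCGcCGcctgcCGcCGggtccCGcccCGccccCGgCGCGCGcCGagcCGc

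The Mylpf window held 1 CG pair and the Tbc1d10b window 45. The CpG ratio, the number of CG pairs over that expected from the C and G content, was 0.0532 in Mylpf and 1.11 in Tbc1d10b, with a GC content of 56.4% and 80.4%. An E-box CAGCTG, a sequence that MyoD family factors bind, began 51 bases before this annotated start of Mylpf. The peak lay 2087 bp from this Mylpf window. The Tbc1d10b window was the closer of the 2, with the start of that gene 571 bp from the summit. Which of the genes, if either, the bound region serves was not tested.

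The Ryr1 peak lay deep in the gene body. The gene covers 121840 bp on the minus strand of chromosome 7, from 29003340 to 29125179, and the peak at chr7:29043228-29043839 had its summit at 29043473. This is 81678 bp downstream of the annotated transcript start at 29125151 and 40133 bp from the 3′ end. At 612 bp the peak was wider than the median of 230 bp over all peaks. It had 14 fragments (7.65 to 23.5), a fold enrichment of 7.35 (4.24 to 12) and a −log10 q of 8.08 over a background of 1.04 scaled fragments. The closest other summit was 269311 bp from this one. Exons and introns were not analysed here.

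The 3 peaks had a fold enrichment at or below the median of a list in which most peaks rest on few fragments. Of all 2977 peaks, 18.0% had a lower fold enrichment than the Myh1 peak, 28.3% than the Mylpf peak and 49.4% than the Ryr1 peak. By pileup, the height of ChIP fragments at the summit, 5.51%, 25.5% and 37.7% were lower. The median over all peaks was 7.35-fold (quartiles 6.27 and 8.82) with 15 fragments and a −log10 q of 8.40. The median of the 3 peaks was 6.47-fold, and that of the 867 peaks within 1000 bp of a protein-coding gene end was 7.24-fold. The intervals of the 3 folds overlapped widely, so an order among them was not detectable at this depth. No peak of the list had fewer than 9 fragments, and at the lowest background 9 fragments gave 5.06-fold, so regions with fewer fragments at the other 39 genes are not listed.

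**Figure D2:**
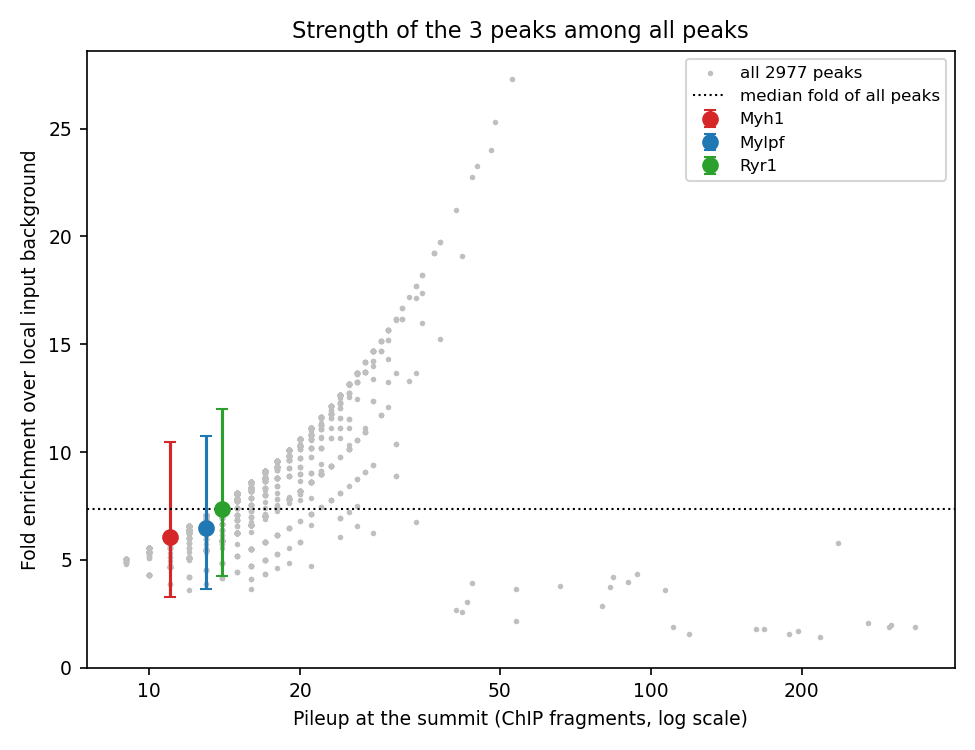
Fold enrichment over the local input background against the pileup at the summit (fragments, log scale) for all 2977 peaks (grey), with Myh1, Mylpf and Ryr1 in colour and their 95% Poisson intervals; the dotted line is the median of all peaks. The 3 peaks sit at 11, 13 and 14 fragments, at or below the median of 7.35-fold.

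Among the thick filament genes, Myh7, the slow and cardiac heavy chain, had its closest summit 45.9 kb away, inside Efs (7.06-fold, 3.99 to 11.7). With the cluster genes above, all 6 heavy chain genes had a summit within 100 kb of their span, though 5 of them share the same one. Of the light chains, Myl2, the slow regulatory chain, was 30.3 kb from a summit of 7.56-fold (4.36 to 12.3) next to Ccdc63. Myl1 (fast essential chain) was 108.2 kb from its closest summit, Myl4 (embryonic and atrial) 267.6 kb and Myl3 (slow and ventricular) 349.6 kb. In fast-fibre genes the count with a peak was 2 of 12. It was 0 of 7 in slow-fibre genes, most of them shared with the heart. In isoforms of developing muscle it was 0 of 5 (Myh3, Myh8, Myl4, Actc1 and Tnnt2, of which the last 3 are also cardiac). Among all protein-coding genes the share was 9.63%. The grouping by fibre type was made after the values were seen and is too small to show a difference.

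None of the 5 actin and tropomyosin genes or the 7 troponin genes had a peak. These are too few to show a difference from the 9.63% of all protein-coding genes. The skeletal actin gene Acta1 was 986.3 kb and the cardiac actin gene Actc1 511.4 kb from the closest summit. Of the tropomyosins, which lie along actin and block the myosin sites at rest, Tpm3 was 20.8 kb from a summit of 6.07-fold (3.28 to 10.5) inside Ubap2l and 4933434E20Rik, Tpm2 38.7 kb from a summit of 6.07-fold inside the talin gene Tln1, and Tpm1 401.8 kb from any. The troponin complex binds calcium through troponin C, inhibits through troponin I and attaches to tropomyosin through troponin T. Tnnc1, the slow and cardiac troponin C, was closest with 10.4 kb to a summit of 7.55-fold (4.51 to 12) inside Nisch, 8905 bp from the end of that gene. Tnni1 was 84.0 kb and Tnnt2 137.3 kb from the same summit of 14.7-fold (9.92 to 21) next to Nav1. The fast genes Tnni2, Tnnt3 and Tnnc2 were 157.0, 213.9 and 321.0 kb from a summit, and the slow gene Tnnt1 was 169.1 kb away.

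Among the genes of the lattice, Ttn, whose product titin spans from Z-disc to M-band, held no summit over its 278.6 kb. The closest lay 12.7 kb outside, inside Plekha3, with 10.7-fold (6.92 to 15.8). Myom1, an M-band gene, was 16.1 kb from a summit of 7.55-fold inside Myl12b, which encodes a non-muscle myosin light chain. Myom2 was 53.8 kb from a summit beside Arhgef10 (8.09-fold), Actn2, the Z-disc alpha-actinin of all striated muscle, 54.5 kb from one beside Heatr1 (8.79-fold), and Neb, whose product nebulin runs along the thin filament, 98.6 kb from one beside Tnfaip6 (6.07-fold). Each of these 3 summits was within 3 kb of the end of the gene it stood beside. Mybpc2 (150.3 kb), Actn3 (239.8 kb), Tcap (324.1 kb), Mybpc1 (558.0 kb) and the Z-disc gene Ldb3 (2476 kb) were further away.

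Of the 7 calcium handling genes only Ryr1 had a peak, and 7 genes are too few to compare with the 9.63% of all protein-coding genes. Cacna1s, the voltage sensor that opens the ryanodine receptor, was 20.6 kb from a summit of 7.08-fold (4.01 to 11.8) inside the kinesin gene Kif21b. Atp2a1, the calcium pump of fast fibres, was 24.1 kb from a summit of 7.59-fold (4.38 to 12.4) that stood 68 bp from an end of Tufm. The calcium storage genes Casq1 and Casq2 were 281.3 and 280.1 kb from a summit, the channel subunit gene Cacng1 327.0 kb and Trdn, whose product triadin anchors calsequestrin to the receptor, 804.1 kb. Ckm, the muscle creatine kinase that rebuilds ATP, was 103.4 kb and Mb, the oxygen-binding myoglobin gene, 164.2 kb away.

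The listed genes had a lower median distance to a summit than all protein-coding genes, as did the related lists and the non-muscle paralogues. The median distance from the span to a summit was 105.8 kb for the 42 genes (quartiles 32.3 and 281.0) and 223.1 kb for all protein-coding genes. It was 134.6 kb for 105 related muscle genes and 81.1 kb for 31 non-muscle paralogues, so a shorter distance is not particular to the contractile genes. Within 10 kb, 4 of the 42 (9.52%) had a summit, against 10.9% of all genes. Within 50 kb it was 14 (33.3%) against 21.5%, and within 100 kb 20 (47.6%) against 31.6%. The shares within 100 kb were 42.9% for the related genes and 58.1% for the paralogues. The genes are not independent in this count, since those of the Myh cluster share a summit. At 11 of the 14 genes the summit lay inside another protein-coding gene or was closer to its end (Myh1 in the case of Myh2 and Myh4), and whether such summits act on the more distant gene was not tested.

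**Figure D3:**
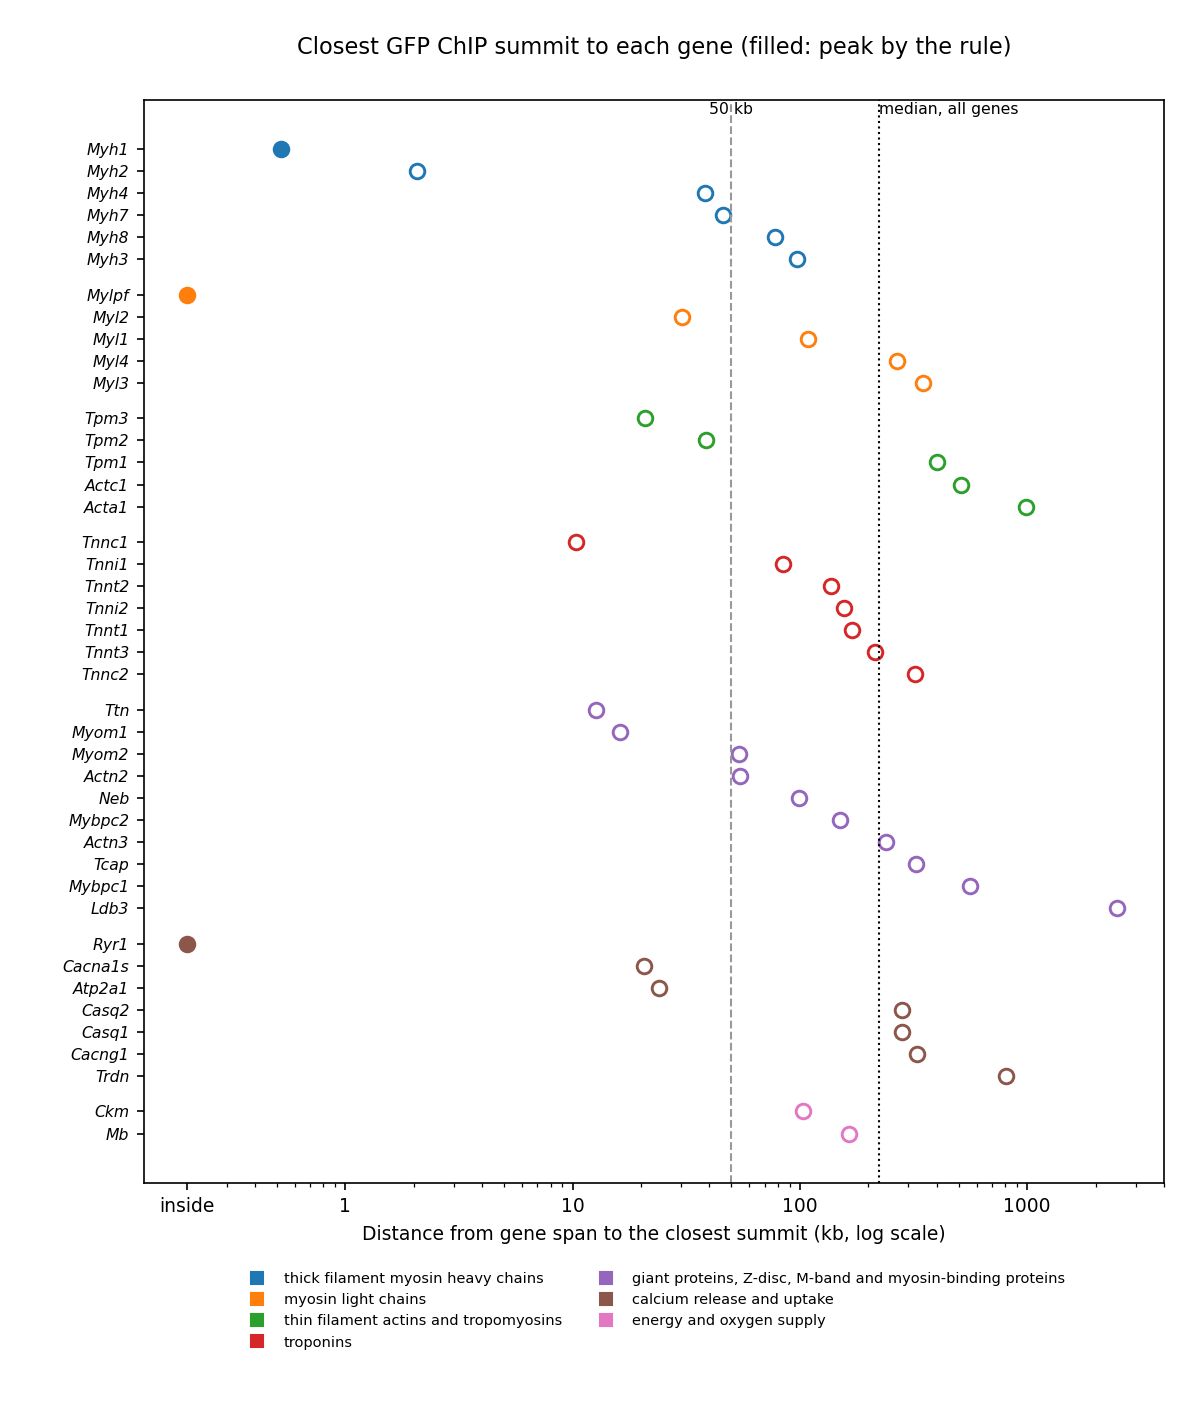
Distance in kb (log scale, "inside" for a summit within the span) from each of the 42 genes to the closest summit, coloured by role; filled points have a peak by the rule. Myh1, Mylpf and Ryr1 are filled, the dashed line is 50 kb and the dotted line the median of all protein-coding genes, 223.1 kb.

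Other genes of the same machinery, taken from 4 lists with 105 genes, had peaks at a like rate: 10 genes (9.52%, 5.26 to 16.6%). Among other sarcomere genes, 3 of 36 had a peak (8.33%), namely Pdlim5, a Z-disc scaffold gene, at 10.6-fold (6.69 to 16.1) and 2 bp from its end, Tmod1, which caps thin filaments, at 9.61-fold (5.90 to 14.9), and Synpo2 at 8.79-fold (5.40 to 13.6). Among other excitation-contraction genes it was 3 of 30, with Bin1, a gene of membrane tubule formation, at 12.6-fold (8.28 to 18.6) and Asph at 6.64-fold (3.96 to 10.5) among them. Assembly and turnover factors had 3 of 21 (14.3%), with the myosin chaperone gene Unc45b at 9.33-fold (5.87 to 14.2), Ankrd1 at 6.58-fold (3.64 to 11.1) and Fbxo32, a ubiquitin ligase gene of muscle wasting, at 4.69-fold (2.54 to 8.08). Of the 18 genes of muscle energy supply only Ppargc1a had a peak (5.56%), at 6.37-fold (3.53 to 10.8).

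Members of the same protein families that work outside striated muscle had peaks at 6 of 31 genes (19.4%, 9.19 to 36.3%). They included the calcium pump gene Atp2b1 (14.7-fold, 9.92 to 21), the calcium channel gene Cacna1d (13.7-fold, 9.10 to 19.8, at a summit 48 bp from an end of Dcp1a), Cald1 (5 peaks, the highest 7.84-fold), Myl12b (7.55-fold, 4.51 to 12) and 2 others with lower folds. Their interval overlaps that of the contractile genes and includes the 9.63% of all genes, so no difference was detectable.

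**Figure D4:**
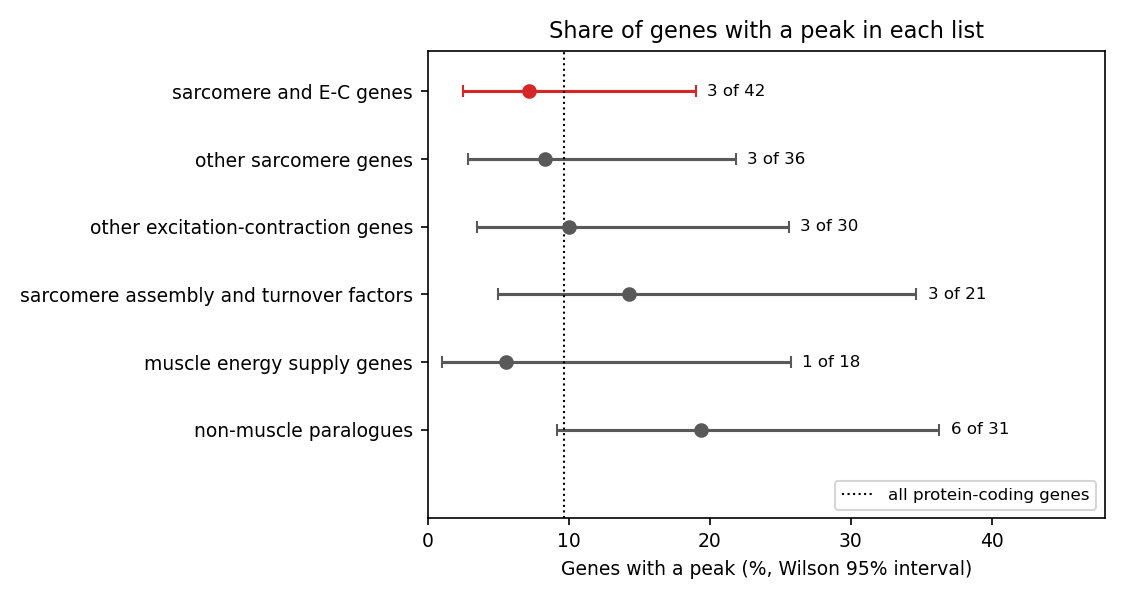
Percentage of genes with a peak in the list of sarcomere and excitation-contraction (E-C) genes (red), in 4 related lists and in non-muscle paralogues (grey), with Wilson 95% intervals. The dotted line marks the 9.63% of all protein-coding genes, which every interval includes.

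The sequences before the starts of the contractile genes were poor in CpG, like those of the related muscle genes, and over all protein-coding genes a summit near the start was rarer at such windows. Upstream windows were found for 34 of the 42 genes, 42 windows in all, some of them overlapping starts of the same gene. Tnnt3, Tnni2, Actn3, Neb, Myom2, Tcap, Cacng1 and Trdn had no entry. The median CpG ratio was 0.265 (quartiles 0.13 and 0.425) against 0.530 (0.217 and 0.80) over the 21263 windows of protein-coding genes, while the GC content was alike (57.0% and 55.6%). A ratio under 0.6 was found in 38 of the 42 windows (90.5%) and in 55.3% of all windows. The 108 windows of related muscle genes had a median ratio of 0.291, with 76.9% under 0.6. The 4 windows above it belonged to Myl4 (0.920), Mybpc1 (0.824), Tpm1 (0.742) and Tpm3 (0.630), and none had a summit within 1000 bp of its start.

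A summit within 1000 bp of the start was found for 1 of the 42 windows (2.38%), that of Myh1, and for 4.69% of all windows. In all windows with a ratio under 0.6 the share was 1.33%, and in those at or above 0.6 it was 8.84%. Among the windows of the contractile genes under 0.6, the share was 1 of 38 (2.63%). The start of Myh1, with a ratio of 0.371, is therefore among the 156 of 11754 such windows in the genome with a summit near the start. The part of CpG content in the counts of peaks was not tested.

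**Figure D5:**
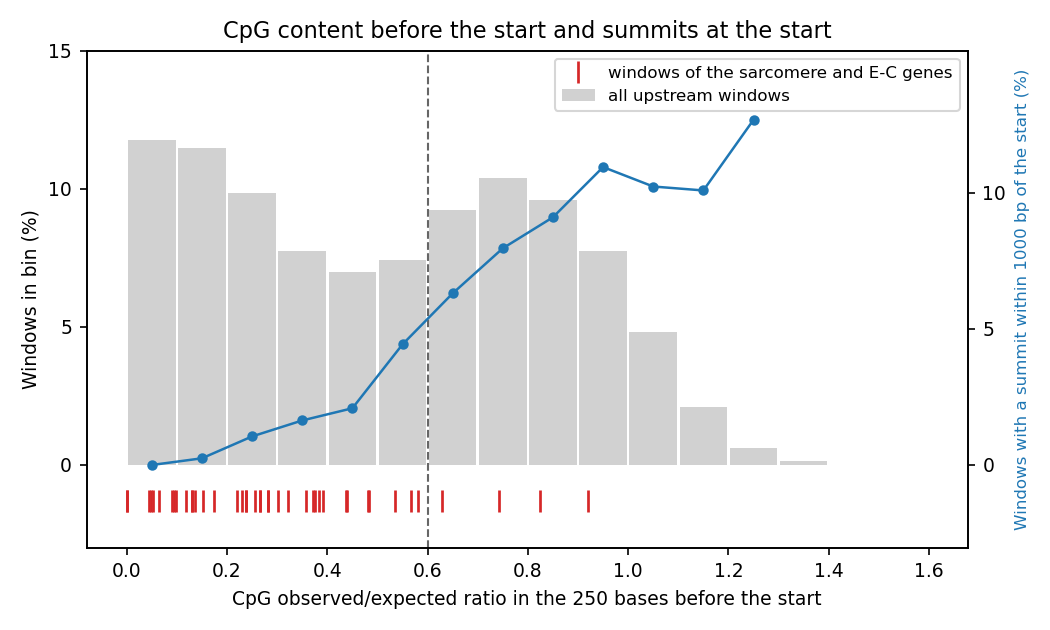
Distribution of the CpG ratio in the 250 bases before the starts of all protein-coding genes (grey bars, % of windows), the values of the sarcomere and excitation-contraction (E-C) genes (red ticks), and the percentage of windows per bin with a summit within 1000 bp of the start (blue, right axis, bins of at least 100 windows). Most red ticks lie under 0.6 (dashed), where 1.33% of all windows had a summit at the start against 8.84% above.

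The letters of 2 sites that muscle factors bind, the E-box CAGCTG and the CArG box, were found before a larger share of these genes than of all, and no test was made of this. A gene was counted once, whichever of its windows held the letters, and the Wilson intervals are over genes. The E-box was present in 17 windows of 15 of the 34 genes (44.1%, 28.9 to 60.5%), against 13.8% of the 17492 protein-coding genes with a window. Any E-box of the form CANNTG, which includes it, was present in 82.4% and 66.3% of genes. The CArG box, the site of serum response factor, stood in 7 windows of 6 genes (17.6%, 8.35 to 33.5%), namely Acta1, Actc1, Ldb3, Myh4, Myl3 and Myom1, against 1.6% of all genes. The letters CTANNNNTAG, a form of the MEF2 site with fixed outer bases, were in 2 genes (5.88%), Ttn and Ldb3, against 3.56%. Forms with other outer bases were not searched, so the share of genes with any MEF2 site is not known. For example, TTATTTATAG in the Myh1 and Myh4 windows differs at the first base and was not counted. The sense-strand box TATAAA was in 5 genes (14.7%) against 9.11%. Homeodomain cores TAAT were before 17 of the 34 genes, against 53.8% of all. The pair of facing cores TAAT and ATTA that paired-class homeodomains bind as dimers was in 0 of 34 genes with 2 bases between and in 0 with 3 (Wilson upper bound 10.2%), against 0.383% and 0.429% of all. Apart from the box TATAAA, motifs were searched on both strands, and a match is a description of letters, not of binding.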

How the data were processed

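The authors ran MACS 2.1.1.20160309, q cutoff 0.01, on 1 ChIP against 1 input library, keeping 1 tag per position, with a fragment length of 172 bp and the larger library scaled down, per the file headers. GRCm38 and HISAT2 are named per the submitters' processing notes. The deposited pileup is a coverage signal (unscaled ChIP fragments over the summit). The fold enrichment the authors deposited is a ratio of pileup to local background, each plus 1. Deposited −log10 p and −log10 q values come from the caller's Poisson test.

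Here the background was recovered from fold and pileup. Intervals of folds are exact Poisson 95% intervals of the pileup and cover counting error only. Gene spans came from a RefSeq table of GRCm38.p6 without 348 rows on scaffolds or patches, and strands and starts from the RefSeq promoter windows. The 2 peaks on scaffolds were not assigned. The assignment was tested on simulated data with genes set far apart. Close neighbours, such as Myh2 and Myh1, and overlapping genes were not simulated. All 178 listed genes matched. Members and lists were chosen with earlier results of these data known. The groupings by fibre type, the CpG comparison, the motifs and the shared run were chosen after seeing the data. Named were all 42 genes, up to 4 genes with the highest folds per list, and the genes holding or next to summits within 100 kb. The values of 1 related gene are not reported here. Alternatives changed the strength of peaks, the distance limit and the assignment. Python 3.11.15, pandas 2.3.3 and scipy 1.17.1 were used.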

Additional observations from a re-analysis of the deposited data

How the results depend on the processing

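The calls rested on few fragments. Keeping only the stronger peaks by −log10 q (median or higher), 0 of the 42 genes and 0 peaks were left (so no fold could be given), with 5 related genes. With the closest transcript start in place of ends and spans, it was 1 gene (Myh1) with 1 peak, and 5 related genes. Of the 42 genes, 8 had no such start, and that of Mylpf was not at the 5′ end of its span. The Mylpf summit went to Tbc1d10b, and the Ryr1 summit had no start of any gene within 50 kb. Both the setting by starts and the next setting were added after seeing the data. With any summit within 50 kb of the span, whichever gene was nearer, it was 14 genes with 14 peaks (highest 16.1-fold, the peak beside Dctpp1), 32 related genes and 11 paralogues. Under the other 7 settings the count stayed at 2 or 3 genes: inside the span only, Mylpf and Ryr1 were left. Since the list holds no region under 9 fragments, absence of a peak does not show absence of binding.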
